A study of Mus musculus with 32 samples.

Results

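The DNA replication and S phase genes of the postnatal mouse retina were followed as a set of 48 genes. They were chosen by name for their textbook roles in copying DNA. The rule held no measured value, but earlier results of these data were known when the genes were chosen. Of the 48 genes, 46 were measured, with 83 probe sets, among 12393 genes with 1 symbol on the array. Chaf1a and Gins2 had no probe set with their symbol alone. Each gene is given by its brightest probe set, the one with the highest mean over all arrays. Retinas came from wild type (wt) and rd1 mice on a C57BL/6 background on postnatal day 2, 4, 6 or 8 (called P2, P4, P6 and P8), and each genotype and age had 4 arrays, which makes 8 groups and 32 arrays. The rd1 animals were homozygous for rd1/le, that is for the retinal degeneration 1 mutation in Pde6b and the linked light ear mutation, and the wt animals carried neither. A difference between the genotypes therefore goes with both mutations. Each sample pooled 8 to 14 retinas, and the age was the only other variable. The sources used here do not state whether the 4 pools of a group came from different litters, so p-values measure the spread between these pools only.

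A cell that is going to divide first loads the origin recognition complex, Cdc6, Cdt1 and the ring of Mcm2 to Mcm7 onto its DNA in G1, which is called licensing. The kinase Cdc7 with its activating subunit Dbf4, together with Mcm10, Cdc45 and the GINS complex, then turns the ring into a running helicase, and polymerases, the sliding clamp Pcna and its loader Rfc copy both strands while ribonucleotide reductase supplies the nucleotides. Most of these genes are transcribed under E2F factors when progenitor cells pass from G1 to S. In the mouse retina progenitors go on dividing through the first postnatal days and leave the cycle as the last rods, bipolar cells and Mueller glia are born. Levels are given on the log2 scale of the deposited values, on which a difference of 1 is a doubling. Because whole retinas were measured, fewer cycling cells and less RNA per cycling cell cannot be told apart.

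The array medians lay between 6.54 and 6.76, and 27 bacterial control probe sets read 1.75 to 4.89 (median 2.84), which is taken as the background range. The mean of 15 measured rod genes rose from 8.80 to 9.19 over the P2 arrays to 11.9 to 12.9 over the P8 arrays, so the markers of the labelled tissue were present. Pde6b, which encodes a subunit of the rod phosphodiesterase and carries the rd1 mutation, separated the genotypes without overlap at P4, P6 and P8 (at P6 13.30 to 13.38 in wt and 10.52 to 10.92 in rd1). At P2 it read 6.96, 7.19, 9.42 and 9.76 on the arrays labelled wt and 7.0, 9.18, 9.24 and 6.84 on those labelled rd1. Arrays of both labels were thus low and arrays of both labels high, which leaves the genotype of the P2 arrays in doubt. The first step of the time course was therefore taken over both genotypes together. The array labelled rd1 P2 replicate 1 and that labelled rd1 P2 replicate 4 had a Gapdh 3′ minus 5′ signal of 1.54 and 1.57, against 0.04 to 0.74 on the other 30 arrays. wt P4 replicate 3 had a higher mean of rod genes (11.1 against 10.35 to 10.45 on the other wt P4 arrays), and rd1 P8 replicate 4 a higher mean of 13 lens genes (11.5 against 7.57 to 7.78).

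The promoters of several of these genes carry the words that E2F factors are known to bind. They are shown because a larger share of these genes than of the array's genes had such a word. RefSeq promoters of build GRCm38.p6, from 250 bases before to 50 bases after each start, were matched for 38 of the 46 genes. They were searched on both strands for TTTCCCGC, TTTGGCGC, TTTCGCGC and TTTGCCGC, words that can overlap each other on opposite strands. At least 1 was found in 13 of the 38 genes (34.21%), against 402 of 9887 genes of the array with a promoter (4.07%) and 704 of 27025 genes in all (2.6%). The 13 were Orc1, Cdc6, Cdt1, Mcm3, Mcm5, Mcm6, Mcm7, Pola1, Pold1, Rfc3, Lig1, Uhrf1 and Dnmt1. In the windows below, all from before the start, capitals mark these words, and in Mcm5 and Mcm6 a run of capitals holds overlapping words of both strands.
Cdc6 (chr11:98907986-98908046, plus strand): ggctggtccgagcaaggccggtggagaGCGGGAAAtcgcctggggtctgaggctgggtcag
Mcm5 (chr8:75109334-75109394, plus strand): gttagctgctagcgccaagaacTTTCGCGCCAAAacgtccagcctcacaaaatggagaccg
Mcm6 (chr1:128359725-128359835, minus strand): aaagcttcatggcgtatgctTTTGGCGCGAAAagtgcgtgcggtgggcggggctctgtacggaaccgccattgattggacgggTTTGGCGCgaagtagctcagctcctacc
Mcm7 (chr5:138172013-138172073, minus strand): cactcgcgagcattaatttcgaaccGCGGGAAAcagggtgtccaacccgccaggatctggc
Pola1 (chrX:93632260-93632320, minus strand): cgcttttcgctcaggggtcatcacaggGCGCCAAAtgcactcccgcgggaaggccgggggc
Uhrf1 (chr17:56304103-56304163, plus strand): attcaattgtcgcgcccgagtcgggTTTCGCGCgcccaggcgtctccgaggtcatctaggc
The promoters of Dbf4, Brca1, Rrm2 and Rpa1, whose levels are described below, held none of the 4 words. They are shown upstream of the start, with capitals for CCAAT, the box bound by the factor NF-Y. It was present in the windows of Brca1, Rrm2 and Rpa1 and not in that of Dbf4.
Dbf4 (chr5:8422746-8422826, minus strand): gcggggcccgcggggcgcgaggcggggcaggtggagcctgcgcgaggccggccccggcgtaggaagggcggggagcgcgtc
Brca1 (chr11:101551985-101552065, minus strand): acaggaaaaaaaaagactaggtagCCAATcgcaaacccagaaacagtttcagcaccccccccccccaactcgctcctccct
Rrm2 (chr12:24708144-24708224, plus strand): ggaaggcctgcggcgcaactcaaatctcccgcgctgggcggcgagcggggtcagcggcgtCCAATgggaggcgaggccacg
Rpa1 (chr11:75348413-75348493, minus strand): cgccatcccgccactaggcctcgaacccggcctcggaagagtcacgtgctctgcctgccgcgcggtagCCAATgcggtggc
CCAAT on either strand was found in a promoter of 55.26% of the 38 genes, against 42.3% of the array's genes and 41.06% of all genes. The cell cycle homology words TTTGAA and TTCGAA were found in 23.68%, against 17.29% of the array's genes and 21.66% of all genes. For the GC box GGGCGG these shares were 76.32%, 61.05% and 38.2%. A match describes letters and does not show that a factor binds there.

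From P2 to P8 the replication genes lost most of their signal. The mean over the 46 genes was 8.90 to 9.21 on the 8 arrays of P2. The wt arrays of P4 had means of 8.27, 8.29, 7.5 and 8.06, and the rd1 arrays 8.5, 8.08, 7.78 and 8.01. By P6 the wt means were 6.70, 6.74, 6.73 and 6.85, beside rd1 means of 7.15, 6.97, 7.15 and 7.08. By P8 wt stood at 6.6, 6.62, 6.62 and 6.38, beside 6.83, 6.61, 6.83 and 6.48 for rd1. Every P6 array lay below every P4 array, and the 2 genotypes did not overlap at P6, where rd1 was higher. The fall of the group means from P2 to P8 had a median of 2.17 over the 46 genes in wt and 2.04 in rd1, or 2.05 and 2.01 with every group mean inside the background range set to its top of 4.89. Rrm2, the S phase subunit of ribonucleotide reductase, fell by 6.33 in wt and 5.95 in rd1. Its group means stayed above the background range, but at wt P8 only just (4.90). Single P8 arrays of Rrm2 lay inside that range, down to 4.40 in wt and 3.64 in rd1. Uhrf1, which brings the maintenance methyltransferase to newly copied DNA, and Tk1, the thymidine kinase of the salvage pathway, reached the background range, and their falls were at least 4.46 and at least 3.58 in both genotypes against its top.

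**Figure D1:**
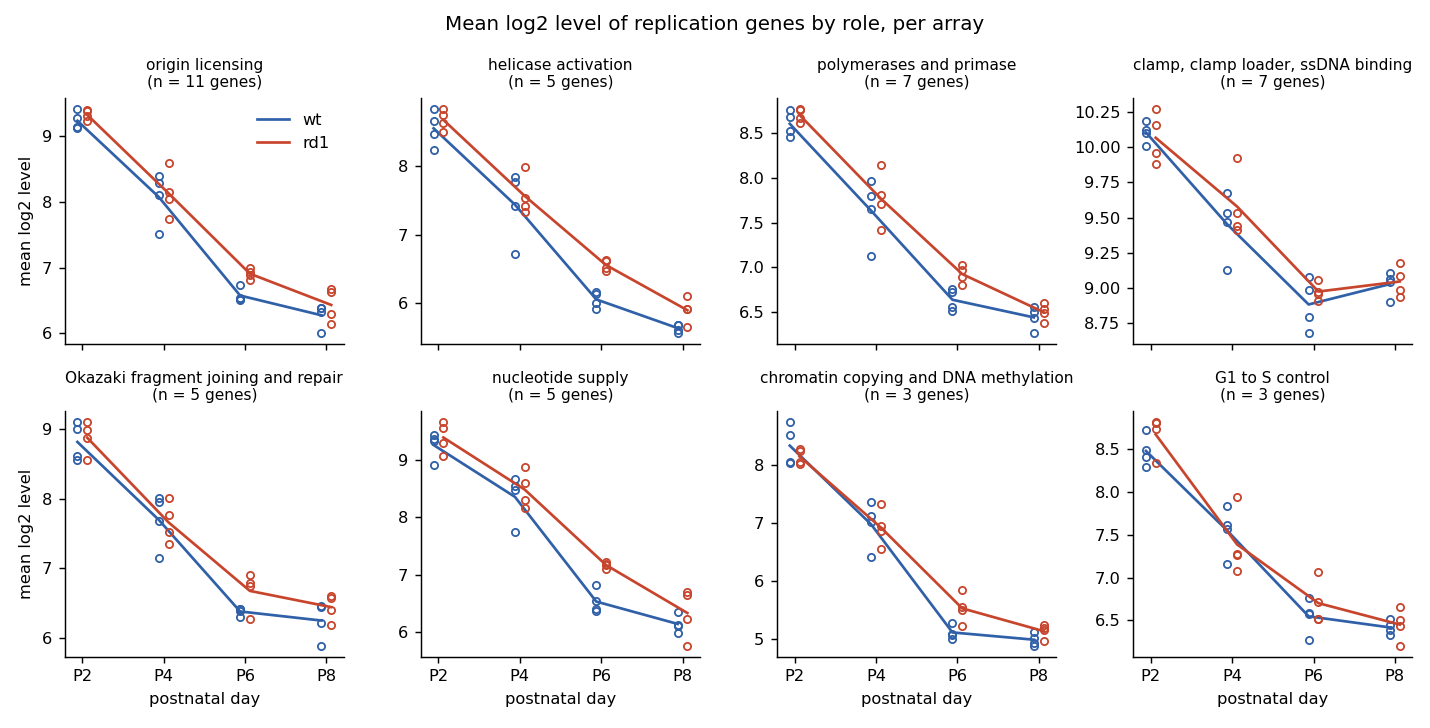
Mean log2 level (y axis) of the genes of each role against postnatal day (x axis), with 1 point per array and lines through the means of 4 arrays in wt (blue) and rd1 (red). In all 8 roles the group mean is highest at P2, and at P6 origin licensing, helicase activation, polymerases and nucleotide supply lie higher on each rd1 array than on each wt array.

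Between P2 and P4, with both genotypes averaged, 42 of the 46 genes fell and none rose (limma, Benjamini-Hochberg adjusted p under 0.05, the rule for every call below). The background was high in this step: 39.3% of all 22626 probe sets changed in either direction and 24.8% fell. The median change was -1.04 over the replication genes and -0.06 over all genes. The 4 widest falls were those of genes with different roles. Cdc6, which loads the Mcm ring, fell by 2.54 ± 0.23 (SE, adjusted p = 2.89e-09), Cdc45, a helicase subunit, by 1.77 ± 0.23, E2f1 by 1.75 ± 0.18, and Ung, which removes uracil from DNA, by 1.74 ± 0.31. Pcna, the sliding clamp and the brightest gene of the set, fell by 0.80 ± 0.09. Orc1, Orc6, Rfc3 and Rrm1 were not called. Orc1 read 2.57 to 2.76 in all 8 group means, within the background range. The brightest probe set of Rrm1 varied widely at P2 (10.86, 10.49, 10.21 and 8.73 on the arrays labelled wt, 8.81, 10.94, 11.09 and 8.74 on those labelled rd1). Its other probe set read 9.85 to 10.39 on the P2 arrays and 8.96 to 9.59 on the P4 arrays, without overlap. The missing call of Rrm1 therefore rests on its brightest probe set.

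Between P4 and P6 the wt retina showed 33 of 46 genes lower and none higher, against a background of 11.9% of probe sets called in either direction and 6.78% called lower. The median was -1.03 (-0.90 with background levels set to the top of their range), with 0.06 over all genes. The P6 arrays lay wholly below the P4 arrays for 30 genes, against 9.36% of all probe sets. By role, 9 of 11 licensing genes, 4 of 5 helicase activation genes, 5 of 7 polymerase and primase genes, 4 of 7 clamp, loader and single-strand binding genes, 4 of 5 genes of Okazaki fragment joining and repair, 3 of 5 nucleotide supply genes, 2 of 3 chromatin genes and 2 of 3 G1 to S genes fell.

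The depth of this fall differed widely between genes. Uhrf1 went from 8.27, 8.25, 6.57 and 7.81 at wt P4 to 2.62, 3.31, 3.24 and 3.44 at wt P6, values within the background range. The fall was at least 7.14-fold, counted to the top of that range (adjusted p = 4.88e-10, limma). Rrm2 went from 10.42, 10.67, 9.45 and 10.60 to 6.89, 5.99, 5.41 and 7.49, a fall by 3.84 ± 0.44 (SE, adjusted p = 3.24e-07). Tk1 went from 7.47, 7.35, 5.28 and 7.06 to 3.30, 3.5, 3.32 and 4.25, also within the background range, a fall of at least 3.74-fold. The P4 and P6 arrays of these genes did not overlap. For each of them wt P4 replicate 3 was the lowest of its group.

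Among the Mcm subunits, which form a ring of equal parts, the wt falls were unequal on the arrays: Mcm5 2.53 ± 0.32, Mcm3 2.27 ± 0.24, Mcm6 1.99 ± 0.18, Mcm4 1.81 ± 0.20, Mcm2 1.33 ± 0.19 and Mcm7 0.89 ± 0.20. Their probe sets differ, and the brightest ones of Mcm2, Mcm3 and Mcm7 can share sequence with other transcripts. The other probe set of Mcm2 fell by 2.03, and the other 3 of Mcm7 fell by up to 1.43, so the order of the subunits depends on the probe set. Dbf4 fell by 2.56 ± 0.23, whereas its partner Cdc7 was not called (-0.39 ± 0.19, adjusted p = 0.218, limma). A gene whose group mean sits in the background range can no longer show a fall. That held for 9 of the 46 genes at wt P6 and 11 at wt P8, against 2 at wt P2, and for 8 at rd1 P6 and 10 at rd1 P8.

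The 13 genes not called in the wt step from P4 to P6 were Orc1, Orc6, Cdc7, Pold1, Pold2, Rfc2, Rpa1, Rpa2, Fen1, Tyms, Dut, Chaf1b and Ccne1. Orc6, the smallest subunit of the origin recognition complex, stood at 9.25 in wt P2, 9.25 in wt P4, 9.11 in wt P6 and 8.70 in wt P8. Rfc2, a clamp loader subunit, had group means of 8.98 to 9.64. For these bright genes the limit was not the background. Of the 13 genes 6 had another probe set above background, and in 2 of them it was called lower. For Fen1, the flap nuclease of Okazaki fragments, the brightest probe set had group means of 9.74 to 10.47, whereas the other fell by 0.92 in wt (adjusted p = 0.000109, limma) and by 0.64 in rd1 (adjusted p = 0.00893). For Rpa2 the other probe set fell by 0.59 in wt (adjusted p = 0.0439) and by 0.66 in rd1 (adjusted p = 0.0338). Both genes are therefore uncertain here.

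In rd1 30 of 46 genes fell between P4 and P6 and none rose, against a background of 7.09% called in either direction and 4.91% called lower, and the median was -0.78 (-0.77 with background levels set to the top of their range, and 0.06 over all genes). The P6 arrays lay wholly below the P4 arrays for 36 genes, against 7.84% of all probe sets. The count of calls rested in part on rd1 P4 replicate 1, without which it was 19. Rrm2 fell by 2.44 ± 0.44, Uhrf1 by at least 2.64 and Tk1 by at least 2.25, since the latter pair reached the background range. Some genes were called in rd1 and not in wt, and the reverse, which by itself shows no difference between the genotypes. The test of the difference is given below.

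**Figure D2:**
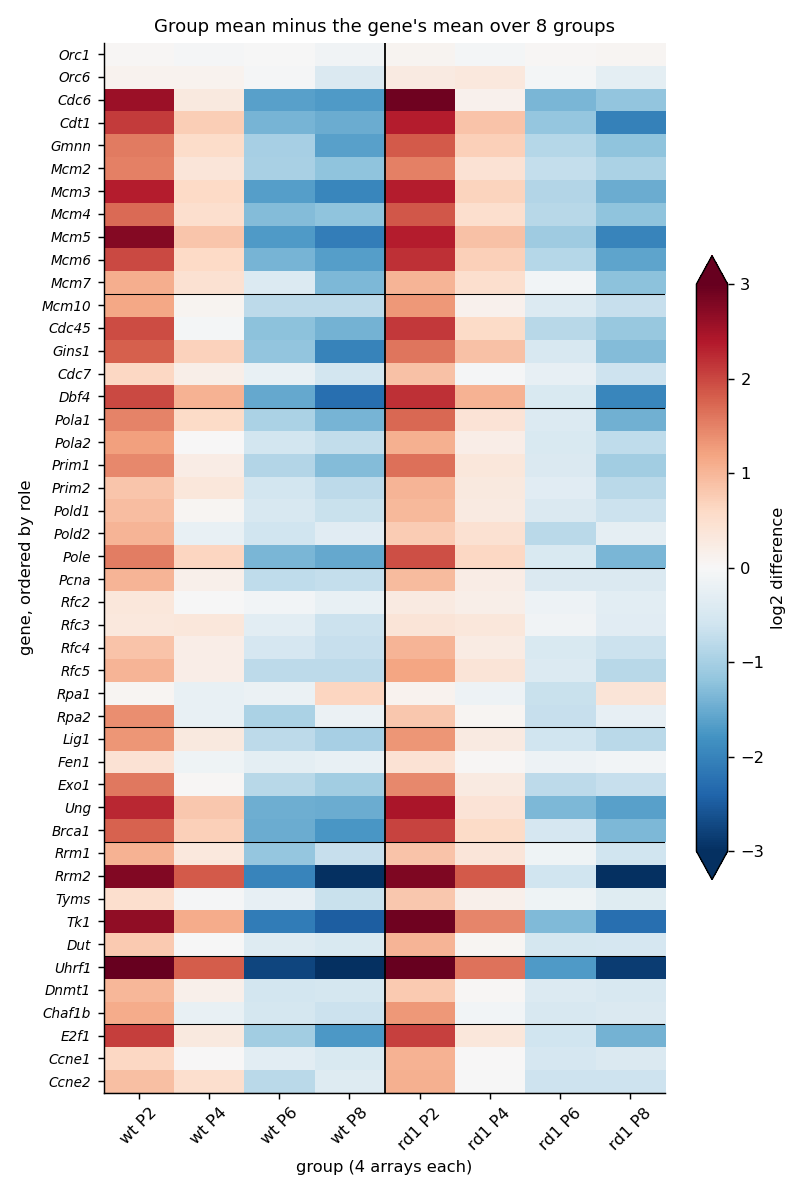
Group mean of each of the 46 genes minus its mean over the 8 groups (colour, log2 difference), with genes on the y axis by role and groups of 4 arrays on the x axis. Most rows run from red at P2 to blue at P6 and P8 in both genotypes, Rpa1 is highest at P8, and Orc1 stays within 2.57 to 2.76 in all 8 groups.

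From P6 to P8 fewer genes were called than in the earlier steps. In wt 6 fell and 1 rose, against a background of 15.6% in either direction and 7.6% lower, so the 7 of 46 genes called are close to the share of all probe sets. Those that fell were Rrm2 (-1.55 ± 0.44), Mcm7 (-0.94 ± 0.20), Gins1 (-0.83 ± 0.27), Dbf4 (-0.74 ± 0.23), Gmnn (-0.63 ± 0.20), the inhibitor of Cdt1, and Orc6 (-0.41 ± 0.12). The wt call of Rrm2 rested on its brightest probe set. Its others were not called in wt (-0.74, adjusted p = 0.176, and -0.36, adjusted p = 0.564, limma). The dimmest averaged 4.74 over all arrays, within the background range. The count was 4 without wt P6 replicate 3 or without wt P8 replicate 2, 3 or 4, and 2 without wt P6 replicate 4. Mcm7 and Rpa1 were called in all 8 of these refits. In rd1 1 gene rose and 12 fell, against 18.3% in either direction. These 12 of 46 genes were a larger share than the 8.76% of all probe sets called lower. They were Rrm2 (-2.55 ± 0.44), Dbf4 (-1.5 ± 0.23), Mcm7 (-1.17 ± 0.20), Pola1, the catalytic subunit of the polymerase that starts each fragment (-1.01 ± 0.21), Brca1, Gins1, E2f1, Mcm6, Prim1, Mcm5, which reached the background range at P8, and Uhrf1 and Tk1, which were inside it at both ages. The other probe set of Rrm2 with a mean above background was also called lower in rd1 (-1.20, adjusted p = 0.0164, limma). The count was 8 without rd1 P6 replicate 3, without rd1 P6 replicate 4 or without rd1 P8 replicate 4.

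Rpa1, the large subunit of the complex that coats single-stranded DNA in replication and repair alike, went the other way from P6 to P8. It read 10.57, 10.36, 10.26 and 10.15 at wt P6 and 11.09, 10.97, 11.25 and 11.32 at wt P8, a rise of 0.82 ± 0.13 (adjusted p = 4.65e-05, limma). In rd1 it read 9.87, 9.87, 9.68 and 9.91 at P6 and 10.85, 11.11, 10.52 and 11.06 at P8, a rise of 1.05 ± 0.13 (adjusted p = 1.07e-06). The rd1 rise followed a called fall from P4 to P6 (-0.53, adjusted p = 0.00899, limma). The same step in wt was 0.06 and not called. The other probe set of Rpa1 was not called in the rd1 step from P4 to P6 (-0.46, adjusted p = 0.175). The P6 and P8 arrays did not overlap in either genotype. It was the only gene of the set whose group mean at P8 was above that at P2. Its partner Rpa2 had dropped to 7.85 in wt and 8.08 in rd1 at P6 and stood at 8.61 and 8.55 at P8, differences of 0.76 and 0.47 that were not called (adjusted p = 0.0688 and 0.308, limma).

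**Figure D3:**
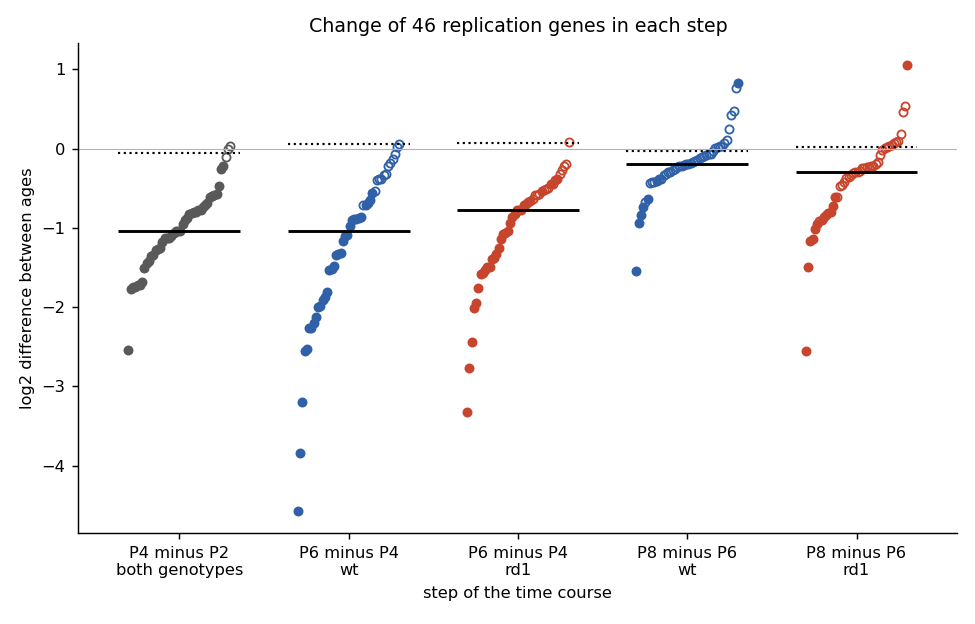
Change of each of the 46 genes in each step (y axis, log2 difference between ages), with filled points for genes called at an adjusted p under 0.05, a solid line at the median of the genes and a dotted line at the median of all 12393 genes. The medians are -1.04 from P2 to P4, -1.03 in wt and -0.78 in rd1 from P4 to P6, and -0.19 and -0.30 from P6 to P8.

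The order of the decline was described for the 40 genes in each genotype whose group means fell by at least 1.0 from P2 (mean of 8 arrays) to P8. By P4 the median gene had completed 43.49% of its fall in wt and 43.66% in rd1. By P6 the median was 92.68% in wt and 84.37% in rd1, and it was lower in rd1 for 32 of the 40 genes. Over the 30 of them above background in all 8 groups the medians by P6 were 91.15% and 84.37%, and rd1 was lower for 25. The midpoint of the fall, interpolated linearly on the log2 scale between ages, lay at a median of day 4.25 in wt and day 4.27 in rd1. These are descriptions of group means, and both genotypes share the P2 value.

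The early end in wt held Rpa2 (midpoint at day 2.96 in wt and 3.29 in rd1), the polymerase delta subunit Pold2 (3.12 and 4.23), and the dUTPase Dut (3.49 and 3.67). Chaf1b was also early in wt, but most of its group means lay inside the background range. In rd1 Pold2 was not early, with a midpoint close to the rd1 median of day 4.27. The late end held Mcm7 (5.39 and 6.03), Rrm2 (5.16 and 5.66), Gins1 (4.92 and 5.0) and Dbf4 (4.88 and 5.30). The midpoint of Rrm2 was taken from its brightest probe set alone, and its fall after P6 differed between probe sets. Within the Mcm ring the midpoint varied with the probe set. In wt the 4 probe sets of Mcm7 gave 4.90 to 5.39, those of Mcm2 4.30 and 4.44, and those of Mcm4 4.17 and 4.23. The probe sets of Mcm3 above background spread more widely, from 3.43 to 4.36. Whether the second step was steeper than the first was tested over both genotypes. Uhrf1 (-2.23 ± 0.43, adjusted p = 0.00235, limma), Rrm2 (-2.19 ± 0.54), Tk1 (-1.48 ± 0.40), Dbf4 (-0.99 ± 0.28) and Rfc3 (-0.55 ± 0.19) fell more from P4 to P6 than from P2 to P4. Uhrf1 and Tk1 were inside the background range at P6. Chaf1b, a histone chaperone of the fork, fell less (0.99 ± 0.28) and lay inside that range in 7 of the 8 groups. That is 6 of 46 genes against 17.5% of all probe sets, no larger share than the background.

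The 13 genes with an E2F word in their promoter had a median wt fall from P2 to P8 of 3.0, and the 25 matched genes without one a median of 1.84. With background levels set to the top of their range these were 2.71 (0.0 to 4.46) and 1.72 (-0.57 to 6.33), so the ranges overlap almost wholly.

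The question the series was made for is how rd1 differs from wt in the days that lead up to rod loss. At P6 the replication genes leaned to higher levels in rd1: 39 of 46 were above 0, with a median difference of 0.24 against 0.04 over all genes. Only Dbf4 was called higher and none lower, against a background of 0.208% of probe sets in either direction and 0.128% higher. At an unadjusted p under 0.05 there were 15 genes higher, against 4.21% of all probe sets, and 1 lower, against 3.89%. The 4 rd1 arrays lay above the 4 wt arrays without overlap for 11 genes (Cdc6, Mcm3, Mcm4, Mcm6, Mcm10, Dbf4, Prim1, Pcna, Brca1, Rrm1 and Uhrf1), against 2.32% of all probe sets, and below them for 1, Rpa1, against 2.49%. Cdc6 (3.17 to 3.31 in wt and 3.37 to 3.63 in rd1) and Uhrf1 were inside the background range in both genotypes.

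Dbf4 at P6 read 6.57, 6.25, 7.0 and 6.78 on the wt arrays, whereas the rd1 arrays read 7.86, 7.54, 7.75 and 7.69. The groups did not overlap, and rd1 was 2.08-fold higher (1.06 ± 0.23 on the log2 scale, adjusted p = 0.0408, limma). The call was narrow. It held in 1 of the 8 refits that left out an array of either group, the one without rd1 P6 replicate 2, and was lost with the other 7, at adjusted p-values from 0.0513 to 0.194 (limma). The difference itself stayed between 0.92 and 1.18. The other probe set of Dbf4 averaged 2.89 over all arrays, within the background range.

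Brca1, which protects and repairs forks, read 5.67, 5.96, 6.15 and 6.03 in wt and 7.13, 6.53, 6.97 and 7.07 in rd1. The groups did not overlap and differed by 0.97 ± 0.23 (adjusted p = 0.0664, limma), just past the threshold. Its 3 other probe sets averaged 2.70 to 4.26, within the background range.

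Of the 5 nucleotide supply genes 4 were higher in rd1 at P6, and none was called by its brightest probe set. At P6 Rrm1, the large subunit of ribonucleotide reductase, read 7.75, 8.03, 7.94 and 7.75 in wt, whereas rd1 read 8.84, 8.95, 8.97 and 8.84. The gap was wide and the arrays within each group were close, yet the brightest probe set was not called (1.03 ± 0.41, adjusted p = 0.493, limma), in a model whose spread for this gene included the P2 arrays that varied widely. With the P2 arrays left out of the model the gene was called, as it was when only the P6 arrays were fitted. The other probe set of Rrm1 read 8.23, 8.24, 8.12 and 7.97 in wt and 8.86, 8.78, 9.07 and 9.0 in rd1, and was called higher in rd1 (0.79, adjusted p = 0.0249). Counted over all 83 probe sets of the set, 2 were called higher at P6, those of Dbf4 and Rrm1, and none lower.

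Rrm2 read 6.89, 5.99, 5.41 and 7.49 in wt and 8.05, 6.84, 8.28 and 8.17 in rd1. The difference was 1.39 ± 0.44 (adjusted p = 0.286) and the groups overlapped through rd1 P6 replicate 2. Its other probe sets differed by 1.49 (adjusted p = 0.0761, limma) and 1.07 (adjusted p = 0.293). The latter averaged 4.74 over all arrays, within the background range. Rrm2 also stands in a list of genes that the study chose on these arrays, and is no independent evidence of a direction. Tk1 read 3.30, 3.5, 3.32 and 4.25 in wt and 4.29, 4.71, 4.08 and 4.38 in rd1 (0.77 ± 0.33, adjusted p = 0.542), all within the background range. Tyms, which makes thymidylate, and Dut differed by 0.12 and -0.13.

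Among licensing genes Mcm3 read 5.63, 6.22, 6.09 and 6.19 in wt and 7.25, 6.71, 6.75 and 6.58 in rd1 (0.79 ± 0.24, adjusted p = 0.254). Mcm6 read 8.14, 8.47, 8.34 and 8.17 against 8.87, 8.79, 9.04 and 8.56 (0.54 ± 0.18, adjusted p = 0.353). Mcm4 read 6.74, 6.76, 6.73 and 6.66 against 7.31, 7.31, 7.08 and 7.08 (0.47 ± 0.20, adjusted p = 0.537). None of the 3 overlapped between the genotypes and none was called. All 4 other measured probe sets of Mcm3 had a difference above 0, between 0.14 and 0.47. Orc6 and Gmnn differed by -0.02 and 0.12.

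Gins1, a subunit of the helicase complex, read 5.37, 5.36, 5.86 and 6.30 in wt and 6.24, 6.34, 6.70 and 6.37 in rd1 (0.69 ± 0.27, adjusted p = 0.490, limma). Pola1 read 5.91, 5.49, 6.04 and 6.12 against 6.62, 6.46, 6.76 and 5.84. Pole, the catalytic subunit of the leading strand polymerase, read 5.49, 4.58, 3.62 and 5.10 against 5.46, 4.99, 5.99 and 6.03. In these genes the genotypes overlapped. Pcna read 11.33, 11.68, 11.68 and 11.66 in wt and 11.78, 11.90, 12.02 and 11.95 in rd1, with no overlap and a difference of 0.32 ± 0.13 (adjusted p = 0.480). Uhrf1 read 2.62, 3.31, 3.24 and 3.44 against 4.15, 3.56, 4.38 and 4.75, a difference of 1.05 ± 0.35 (adjusted p = 0.332) between values that both lie in the background range. Its other probe set differed by 0.27 (adjusted p = 0.881, limma).

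Rpa1 was the gene of the set furthest below 0 at P6, at 10.57, 10.36, 10.26 and 10.15 in wt and 9.87, 9.87, 9.68 and 9.91 in rd1. The groups did not overlap and differed by -0.51 ± 0.13 (adjusted p = 0.10, limma). Its other probe set differed by -0.42 (adjusted p = 0.610).

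**Figure D4:**
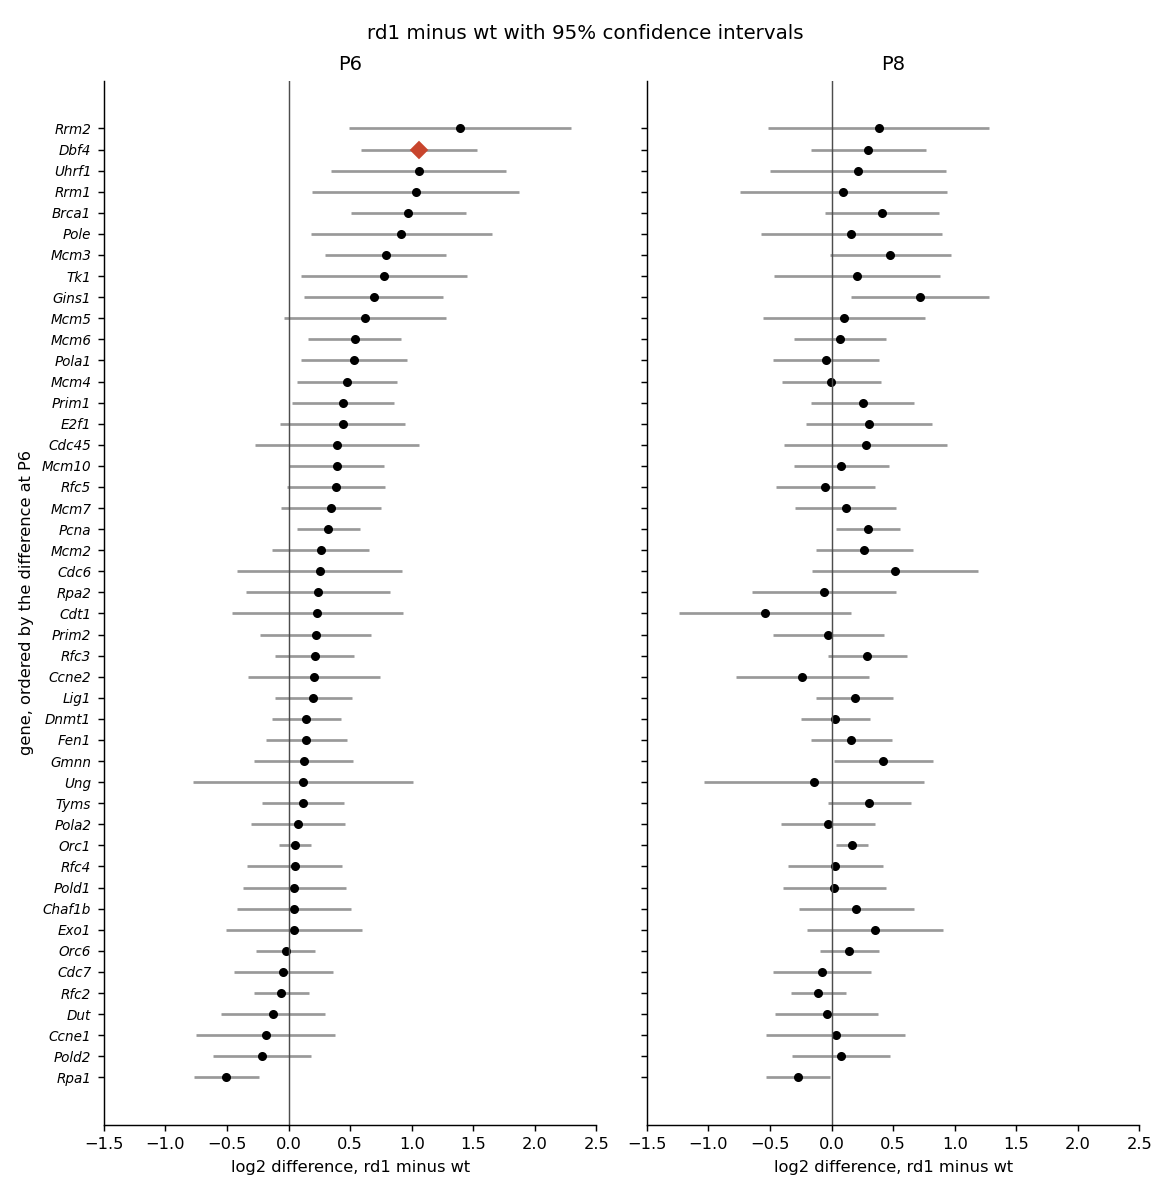
Difference rd1 minus wt of each of the 46 genes (x axis, log2 scale) at P6 and P8 with 95% confidence intervals from limma, genes ordered by the P6 value on the y axis. The red diamond marks Dbf4, the gene called at P6 (1.06, adjusted p = 0.0408). At P6 39 points lie right of 0 and at P8 33.

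Of 21 genes with at least 2 probe sets above the background, the sign of the P6 difference was the same in 18 and differed in Cdc7, Dnmt1 and Pold1. The size of the P6 difference was set against the wt fall. In 23 genes the wt mean fell by at least 1.0 from P4 to P6. Their rd1 level at P6 stood above the wt level by a median of 26.96% of that fall. The shares ran from 5.29% in Ung to 69.43% in Rrm1, with 41.33% in Dbf4 and 44.35% in Brca1. Ung, Cdc6, Cdc45, Tk1 and Uhrf1 were inside the background range at P6 in both genotypes. The wt P6 value enters both the choice of genes and the share, which favours positive shares. Every gene with a P6 difference below 0 fell by less than 1.0 in wt and was left out, so the shares are no test of a direction. Whether the step from P4 to P6 differed between the genotypes was tested directly, and none of the 46 genes was called (limma, background 0.0177% of probe sets). At an unadjusted p under 0.05 there were 6 genes with a smaller fall in rd1, against 3.12% of all probe sets with a difference in that direction, and 2 with a larger one, against 3.15%. Brca1 had the smallest p, a difference between the steps of 1.11 ± 0.32 (adjusted p = 0.351, limma), followed by Dbf4 (1.06 ± 0.32), and Rpa1 (-0.59 ± 0.18) and Pold2 (-0.88 ± 0.27) lay on the other side.

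At P8 no gene was called (limma, background 0.212%). The difference was above 0 for 33 of 46 genes, with a median of 0.13 against 0.06 over all genes, and at an unadjusted p under 0.05 4 genes were higher and 1 lower, against 15.4% and 3.45% of all probe sets, so the 4 are a smaller share than the background. Gins1 differed most among the first (0.72 ± 0.27, adjusted p = 0.217, limma). Its arrays read 5.27, 5.0, 4.81 and 4.46 in wt and 5.81, 5.77, 5.96 and 4.88 in rd1. Dbf4 read 5.87, 5.89, 5.82 and 6.06 in wt and 6.78, 6.09, 6.48 and 5.50 in rd1 and Rrm1 8.58, 8.45, 8.32 and 8.03 against 8.85, 8.47, 8.70 and 7.72. In these genes rd1 P8 replicate 4, the array with the high lens signal, was the lowest of the rd1 arrays. Groups that did not overlap were found for 6 genes, all higher in rd1, against 10.2% of all probe sets, and for none lower, against 2.34%. Whether the step from P6 to P8 differed between the genotypes gave no call (background 0.0221%), with 0 genes of smaller and 1 of larger fall in rd1 at an unadjusted p under 0.05 (4.66% of all probe sets in either direction).

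At P4 no gene was called (limma, background 0.00442%) and only Pold2 passed an unadjusted p of 0.05, against 2.99% of all probe sets (0.67 ± 0.19, adjusted p = 1.00). The median difference was 0.05, and its sign turned to -0.09 without wt P4 replicate 3 and to -0.06 without rd1 P4 replicate 1. At P4 no gene separated the genotypes, against 1.99% of all probe sets that lay wholly higher in rd1 and 1.05% wholly lower. Dbf4 read 9.5, 9.57, 8.36 and 9.41 in wt and 9.69, 9.18, 8.96 and 9.0 in rd1. Brca1 read 8.64, 8.34, 7.66 and 7.97 against 8.45, 7.88, 7.76 and 7.95. At P2 no gene was called between the arrays as labelled (background 0.0398%), none passed an unadjusted p of 0.05 (7.96% of all probe sets did), and the directions rest on labels that Pde6b put in doubt. Among all 83 probe sets 1 was called there, a dim one of Exo1 (-0.99, mean 3.06 over all arrays).

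Set side by side across ages, the mean of the 46 genes in rd1 at P6 (7.09) lay between wt P4 (8.03) and wt P6 (6.76). This did not hold for every gene, and Rpa1 in rd1 at P6 (9.83) lay below both (10.28 and 10.34). Against wt P4, 24 of 46 genes were lower in rd1 at P6 and none higher (background 6.2%). The rd1 retina at P8 against the wt retina at P6 gave 1 gene lower, Mcm7 (-0.82 ± 0.20), and 1 higher, Rpa1 (0.55 ± 0.13), against a background of 15.1%. These comparisons share samples with the steps above.

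**Figure D5:**
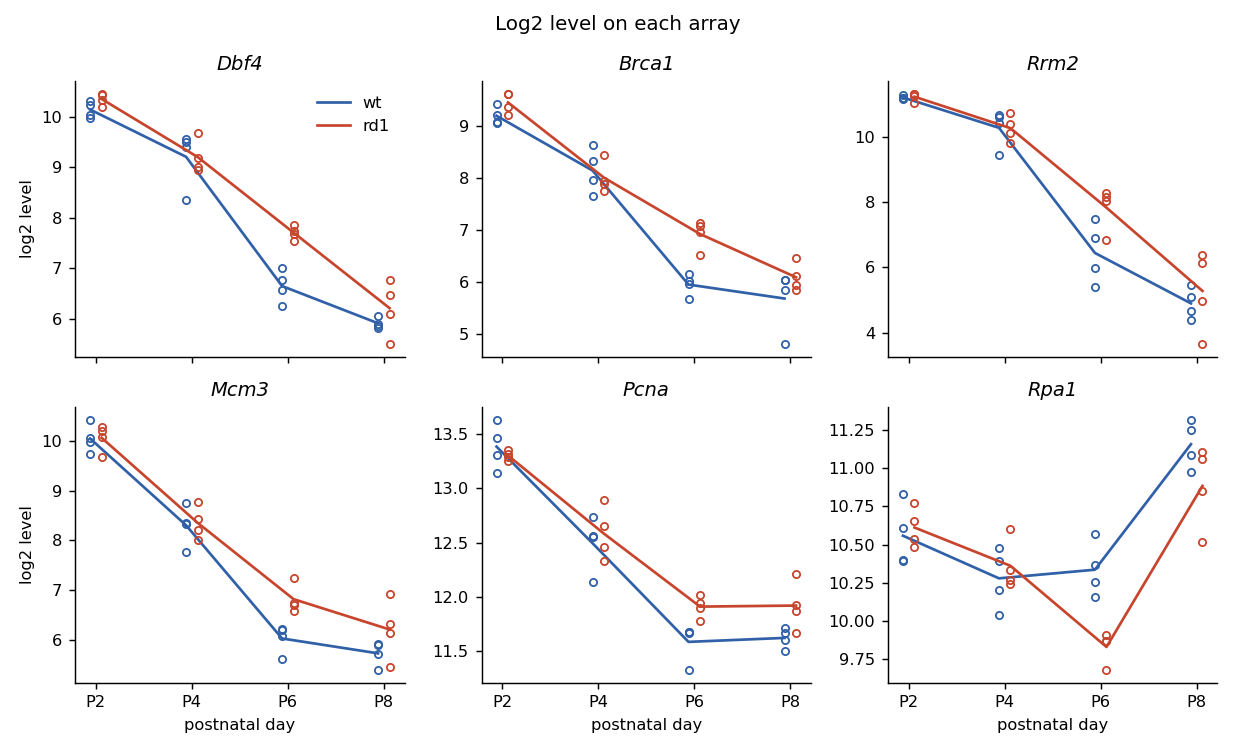
Log2 level (y axis) of 6 genes on each array against postnatal day (x axis), wt in blue and rd1 in red, with lines through the means of 4 arrays. At P6 Dbf4, Brca1, Mcm3 and Pcna lie higher on every rd1 array than on every wt array, Rrm2 overlaps, and Rpa1 is lower in rd1 before it rises in both genotypes at P8.

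A second list of 60 replication and S phase genes, of which 46 were measured, was examined on the same arrays. From P4 to P6 22 of them fell in wt and 19 in rd1, against 6.78% and 4.91% of all probe sets, and none rose. From P2 to P4 29 fell and 2 rose, Orc3 and Orc5, subunits of the origin recognition complex. In that step 39.3% of all probe sets were called in either direction and 24.8% called lower. At P6 38 of 46 were higher in rd1, with a median of 0.14. Against a background of 0.208% of all probe sets in either direction, 1 was called. This was Ccna2, the cyclin of S phase and G2, at 7.45 to 7.89 in wt and 8.38 to 9.15 in rd1 (1.18 ± 0.26, adjusted p = 0.0462, limma). The next were Smc2, a condensin subunit that acts in mitosis (0.86 ± 0.22, adjusted p = 0.0996), Rif1, which times the firing of origins (0.59 ± 0.16, adjusted p = 0.137), and Hells, a chromatin remodeller of newly copied DNA (1.27 ± 0.38, adjusted p = 0.251). At P8 none was called.

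Genes that hold the cycle back were looked at in the same way, as a list of 14 inhibitors and pocket proteins. None rose from P4 to P6 in either genotype, a step in which 6.78% of all probe sets were called lower in wt and 4.91% in rd1. In wt 4 fell, Rbl1 (-2.33 ± 0.38) and Cdkn2c (-2.13 ± 0.22), which themselves are known as E2F targets, Cdkn1b (-1.04 ± 0.29) and Rb1 (-0.49 ± 0.16), and in rd1 Rbl1 and Cdkn2c fell. In the first step Btg2, an antiproliferative gene (0.74 ± 0.12), and Cdkn1c (0.44 ± 0.10) rose, and 6 others fell. Of all probe sets 39.3% were called in either direction in that step and 24.8% called lower, so calls were common on the whole array. Between the genotypes at P6 none was called. The 4 with the smallest p were Cdkn2c (0.74 ± 0.22, adjusted p = 0.249, limma), Rbl1 (0.87 ± 0.38), Rbl2 (-0.31 ± 0.16) and Gadd45a (-0.48 ± 0.25).

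Values of mitotic genes are given beside these. Of 32 measured mitotic genes 31 were higher in rd1 at P6 and 11 were called, with a median of 1.19 against 0.24 over the replication genes. Of all probe sets 0.208% were called at P6 in either direction. Averaged over the list, the wt arrays read 5.39, 5.51, 5.44 and 6.09, all below the rd1 arrays at 6.85, 6.31, 7.19 and 6.94. From P4 to P6 31 of 32 fell in wt, with a median of -3.20, against -1.03 over the replication genes, and 28 fell in rd1. In that step 6.78% of all probe sets were called lower in wt and 4.91% in rd1. The difference between the lists was not tested.

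Other markers moved with these groups. Between the genotypes at P6, 0.208% of all probe sets were called in either direction. At P6 the mean of 18 progenitor genes was 8.12 to 8.23 in wt and 8.36 to 8.68 in rd1, with 15 of 18 higher in rd1 and none called. The mean of the 15 rod genes was 11.9 to 12.3 in wt and 11.3 to 11.5 in rd1, with none higher in rd1 and 1 called lower. The mean of 14 bipolar cell genes was 8.00 to 8.54 in wt and 7.46 to 7.69 in rd1, with 5 called lower and 1 higher, and that of 13 lens genes was 6.25 to 7.91 and 4.97 to 6.73, with none called. No gene was called in the lists of Mueller glia, amacrine and horizontal, ganglion, pigment epithelium, red blood, microglial and endothelial or mesenchymal cells, whose medians lay between -0.08 and 0.14. In the wt step from P4 to P6, 11.9% of all probe sets were called in either direction and 6.78% called lower. In that step 13 of 15 rod genes rose and 15 of 18 progenitor genes fell. The part of these shifts in the result was not tested. The wt P4 array with the high rod signal, replicate 3, was also the wt P4 array with the lowest mean of the replication genes.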

How the data were processed

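Total RNA of pooled retinas was hybridised to Affymetrix MOE430A arrays by the authors, who deposited log2 values made by RMA per the labels (version not given in the sources used here). A deposited table of the authors' own fold changes and p-values was not used. Control probe sets (64 of 22690) were left out and 22626 were tested. Symbols came from GEO's platform annotation: 20380 probe sets have 1 symbol, 691 several and 1555 none listed. The model was limma 3.58.1 in R 4.3.3 with 1 mean per group over all 32 arrays (24 residual degrees of freedom), an intensity trend and Benjamini-Hochberg adjustment over all probe sets within each contrast, tested first on simulated data. P-values measure the spread between pools. The number of arrays limits the precision.

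The 48 genes and the other lists were chosen with earlier results of these data known, and the lists are textbook lists. Any of the 48 genes could be named. Values on every array are given for 14 genes, those called between the genotypes and then those with the smallest p at P6. The further genes named are those called between the genotypes and the 4 of each list with the smallest p at P6, and those named for the time steps were chosen after their values were seen. The brightest probe set of a gene was chosen by its mean over all arrays. Promoters are RefSeq's, and 8 of the 46 genes had no entry. Alternatives were a separate fit, no trend, array quality weights, a replicate block, median centring, a further quantile normalization, a filter on dim probe sets, the mean of all probe sets, leaving out each array and, added after seeing the data, leaving out the 8 arrays of P2. A group mean at or below the highest bacterial control value is called within the background range, and a fall into it is given as at least the fall to the top of that range.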

Additional observations from a re-analysis of the deposited data

Results flagged for a closer look

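In 9 of 120 groups of 4 arrays examined (the 14 genes given on every array and the mean of the 46 genes, in 8 groups), 1 array stood far from the other 3. Chance alone gives this in about 1 in 20 groups. All 9 arrays were low. The mean of the 46 genes was 6.38 on wt P8 replicate 4, against 6.6 to 6.62 on the others. Brca1 was 4.81 on the same array, against 5.86 to 6.04. On wt P4 replicate 3 Dbf4 was 8.36, against 9.41 to 9.57, and Gins1 6.89, against 7.75 to 7.89. On rd1 P8 replicate 4, the array with the high lens signal, Uhrf1 was 2.81, against 3.14 to 3.17, and Gins1 4.88, against 5.77 to 5.96. Rrm2 was 6.84 on rd1 P6 replicate 2, against 8.05 to 8.28. Pcna was 11.33 on wt P6 replicate 1, against 11.66 to 11.68, and Tk1 2.85 on wt P8 replicate 1, against 3.30 to 3.36.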

How the results depend on the processing

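The falls from P2 to P4 (42 genes; 41 to 44 under all alternatives) and from P4 to P6 in wt (33; 29 to 34) kept their counts within 1.5 times, and no called result changed direction. The median genotype difference at P4, where no gene was called, was 0.05 and turned to -0.05 with array quality weights, -0.09 without wt P4 replicate 3 and -0.06 without rd1 P4 replicate 1. The genotype difference at P6 depended on the setting. Against 1 gene in the reported fit, 10 were called with array quality weights (Brca1, Dbf4, Gins1, Mcm3, Mcm4, Pola1, Rpa1, Rrm1, Rrm2 and Tk1, Rpa1 being lower), 2 with median centring, 2 without the 30% dimmest probe sets (Dbf4 and Brca1 in both), and 0 to 2 when an array was left out. Array weights also gave 3 genes at P8, 3 for the genotype difference in the step from P4 to P6, and 23 for rd1 from P6 to P8. A separate fit of P6 and the fit without the P2 arrays called Rrm1 in place of Dbf4 (adjusted p of Dbf4 0.0889 and 0.107). The cause was not tested. Leaving out an array gave 19 to 31 genes for rd1 from P4 to P6 (30 reported), 2 to 8 for wt from P6 to P8 (7 reported) and 8 to 12 for rd1 from P6 to P8 (13 reported). At P2 and P4 and for the step from P6 to P8 between the genotypes the count was 0 throughout.

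The replicate numbers were not treated as pairs in the reported fit. Of 16 pairs of same-numbered arrays 7 correlated over 0.1 (-0.42 to 0.61). Arrays with differing numbers were not compared, so these values cannot show whether the numbers pair the samples. With the replicate block 1 gene was called at P6, Dbf4 (1.06), 33 in wt and 30 in rd1 from P4 to P6, and the other counts stayed within 1.5 times of those reported.

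The limits are 4 pools a group, P2 labels in doubt, up to 11 of 46 genes within the background range in a group, and whole-retina RNA.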
